A study of Homo sapiens with 20 samples.

Results

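Chemoattractant receptors are the G protein-coupled receptors through which neutrophils, monocytes and their precursors sense bacterial peptides, complement fragments, chemokines and lipid mediators. The 10 receptors examined here were chosen by gene symbol (FPR1, FPR2, C3AR1, C5AR1, CXCR1, CXCR2, CXCR4, CCR1, CCR2 and LTB4R), from 28051 named genes in the RNAseq tables. In the ATACseq table, the rule took every region whose gene column lists 1 of them, which gave 2 of 8286 regions. The cells were HL60, a human acute myeloid leukemia line of promyelocytic character that matures toward neutrophil-like cells under all-trans retinoic acid (ATRA). Cells carrying a CRISPR knockout of HK3, the myeloid hexokinase, and Cas9-expressing control cells were each treated with 1 µM ATRA or with 0.01% DMSO, the diluent, for 36 h. RNAseq held 3 replicates of each of the 4 groups (12 libraries, 200000 cells per sample) and ATACseq held 2 (8 libraries, 100000 cells per sample). The titles of all knockout libraries carry the same line name, KO-2G, and the study's methods describe knockout lines grown as clones, so the replicates are read here as cultures of 1 line. The p-values then measure only the spread between these cultures, which may be technical.

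Binding of a ligand to these receptors activates Gi proteins in myeloid cells. The released Gβγ subunits act on phospholipase C β and on PI3Kγ, which leads to calcium release, polarized actin assembly and movement up the gradient, while receptor kinases and β-arrestins switch the receptor off. During granulocyte maturation CXCR4, the receptor for CXCL12, retains cells in the bone marrow, whereas CXCR2 and the formyl peptide and C5a receptors are characteristic of mature neutrophils, and CCR2 is best known from classical monocytes.

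The 12 RNAseq libraries summed to between 29053838 and 31548189 normalized read counts, with an estimated depth before scaling of 22700000 to 37000000 counts. Between 15031 and 16750 named genes were above 0, with the highest number in Cas9 control DMSO replicate 1. HK3 itself was at 65 to 105 normalized counts in Cas9 control DMSO and 1298 to 1850 in Cas9 control ATRA, and at 302 to 346 and 1285 to 1975 in the DMSO and ATRA libraries labelled HK3-null. The RNA level of the targeted gene was thus not lower under that label and did not serve as a check of it, so HK3-null below names libraries by their label. The study reports that it checked its knockout lines by sequencing the Cas9 cut sites and by mass spectrometry of the proteins. All 10 HL60 identity markers, among them MPO and MYC, were detected in every group. The summed level of 13 mature neutrophil markers was 2148 to 2222 normalized counts in Cas9 control DMSO, 14975 to 15783 in Cas9 control ATRA, 13178 to 14935 in HK3-null DMSO and 72525 to 76400 in HK3-null ATRA. Most of it was CYBB, CSF3R and NCF1, at means of 45698, 12772 and 11307 in HK3-null ATRA. FCGR3B, MMP8, MMP9, LTF, CAMP, ALPL and S100A12 were at 0 to 6 counts in the Cas9 control. Of 12 tested, 6 were called higher and 0 lower with ATRA in the Cas9 control, against 7.26% and 3.18% of all genes. In HK3-null 6 were called higher and 1 lower, against 8.83% and 6.51%. The 9 eosinophil markers summed to 9021 to 9958, 1224 to 1408, 165529 to 173420 and 45648 to 54763 in the group order of the neutrophil sums, most of it PRG2, a granule protein, in all groups but Cas9 control ATRA. The 10 monocyte and macrophage markers summed to 415 to 546, 1269 to 1625, 1737 to 1784 and 4770 to 5139. Most of this was CD68, except in Cas9 control DMSO. CD14, a defining monocyte marker, was at 1 to 4 counts in the Cas9 control and at 77 to 125 under the HK3-null label. Other markers of this list went the other way with ATRA present. Mean counts in Cas9 control ATRA and HK3-null ATRA were 326 and 162 for CSF1R, and 106 and 31 for IRF8. Between genotypes, 8 of the list were tested. In DMSO 5 were called higher under the HK3-null label and 0 lower, and in ATRA 3 higher and 2 lower. The erythroid markers summed to 34 to 85 counts. The lymphoid markers summed to 261 to 290, 380 to 404, 471 to 500 and 1217 to 1334 in the same order, most of it NKG7, a cytotoxic granule gene that was called 1.97 log2 higher in HK3-null ATRA than in Cas9 control ATRA (adjusted p = 1.62e-09). In bulk samples, fewer cells of a type and less RNA per cell cannot be told apart.

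The deposited ATACseq regions, described further on, fell on none of the 10 receptor promoters. Those of the formyl peptide and complement receptors and of CCR1 and CCR2 are shown as examples. Each window spans 250 bases before to 50 bases after the RefSeq start site in GRCh38.p14, 5′ to 3′ on the strand of the gene, with motif matches in capitals. FPR1 is at chr19:51751829-51752128 (minus strand), FPR2 at chr19:51760930-51761229 (plus strand), C3AR1 at chr12:8066310-8066609 (minus strand), C5AR1 at chr19:47309611-47309910 (plus strand), CCR1 at chr3:46208264-46208563 (minus strand) and CCR2 at chr3:46353861-46354160 (plus strand).
FPR1: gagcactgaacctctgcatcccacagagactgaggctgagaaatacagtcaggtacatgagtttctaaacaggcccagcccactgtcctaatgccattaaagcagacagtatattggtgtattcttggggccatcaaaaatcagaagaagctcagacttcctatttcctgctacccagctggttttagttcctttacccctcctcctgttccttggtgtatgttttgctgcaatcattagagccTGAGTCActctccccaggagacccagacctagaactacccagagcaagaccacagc
FPR2: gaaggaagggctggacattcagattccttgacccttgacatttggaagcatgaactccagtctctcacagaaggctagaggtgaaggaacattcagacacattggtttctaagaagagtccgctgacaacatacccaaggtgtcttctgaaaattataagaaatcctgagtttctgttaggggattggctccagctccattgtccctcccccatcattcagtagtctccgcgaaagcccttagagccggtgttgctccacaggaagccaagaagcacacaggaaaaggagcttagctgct
C3AR1: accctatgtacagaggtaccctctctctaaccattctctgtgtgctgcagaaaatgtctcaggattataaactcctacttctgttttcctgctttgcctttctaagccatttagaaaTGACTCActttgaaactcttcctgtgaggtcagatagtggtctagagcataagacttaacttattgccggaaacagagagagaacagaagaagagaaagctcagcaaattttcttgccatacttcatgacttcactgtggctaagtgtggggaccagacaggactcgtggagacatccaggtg
C5AR1: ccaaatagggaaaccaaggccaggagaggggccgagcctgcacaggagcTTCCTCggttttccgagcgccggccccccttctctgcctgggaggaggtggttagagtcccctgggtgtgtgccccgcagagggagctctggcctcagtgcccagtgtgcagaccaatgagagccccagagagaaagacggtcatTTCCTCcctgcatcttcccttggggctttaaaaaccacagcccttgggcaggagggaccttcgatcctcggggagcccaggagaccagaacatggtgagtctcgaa
CCR1: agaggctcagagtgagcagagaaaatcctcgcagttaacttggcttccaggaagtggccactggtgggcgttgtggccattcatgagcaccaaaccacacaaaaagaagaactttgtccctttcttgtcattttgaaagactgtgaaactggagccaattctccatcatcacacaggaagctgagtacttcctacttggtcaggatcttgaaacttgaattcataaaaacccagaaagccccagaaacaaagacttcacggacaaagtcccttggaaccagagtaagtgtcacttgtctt
CCR2: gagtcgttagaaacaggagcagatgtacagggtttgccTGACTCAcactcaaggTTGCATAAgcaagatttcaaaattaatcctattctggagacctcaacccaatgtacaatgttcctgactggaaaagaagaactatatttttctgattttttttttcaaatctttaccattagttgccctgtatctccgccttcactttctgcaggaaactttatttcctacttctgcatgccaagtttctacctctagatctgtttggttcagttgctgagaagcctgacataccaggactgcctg
The letters searched on both strands were GAGGAA (the core of many PU.1 sites), TTGCNNAA (C/EBP-like), TGANTCA (AP-1-like) and direct repeats of AGGTCA with 5 or 2 bases between them, the arrangement of retinoic acid response elements. TGANTCA occurred in FPR1 at -6 from the start site, in C3AR1 at -133 and in CCR2 at -212, so in 3 of the 10 receptor promoters against 7.72% of 34943 RefSeq promoters of the same length. GAGGAA occurred in C5AR1 at -201 and -56 and in CXCR4 at -113, in 2 of 10 against 27.9%. TTGCNNAA occurred in CCR2 at -196, 1 of 10 against 10.5%. The direct repeats were found in none of the 10 and in 0.00572% and 0.00286% of all promoters. FPR2, CXCR1, CXCR2, CCR1 and LTB4R held none of these letters in this window. A match is only a description of the letters.

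Of the 10 receptors, 9 passed the filter on low values and were tested with limma among 13256 genes. CXCR1, a receptor for CXCL8, did not: its counts were 1, 0 and 1 in Cas9 control DMSO, 4, 1 and 1 in Cas9 control ATRA, 1, 3 and 6 in HK3-null DMSO and 5, 0 and 2 in HK3-null ATRA. These values overlapped in all groups and are at the limit of detection, so no fold change is given. FPR1 passed the filter clearly only on its HK3-null means of 7.75 and 7.78 on the deposited log2 scale. In Cas9 control ATRA it was at 3.06, just above the limit of 3, and in Cas9 control DMSO at 2.46, below it. A receptor passes the test below at a Benjamini-Hochberg adjusted p under 0.05 over all tested genes. It is counted as called where it also changed at least 2-fold. Fold changes are on the log2(normalized count + 1) scale and understate the change of genes at few counts.

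In Cas9 control cells, the ATRA response of the receptors was led by the CC chemokine receptors CCR1 and CCR2, and 1 receptor, FPR2, fell. At adjusted p under 0.05, 7 of the 9 tested receptors were higher with ATRA, against 21.1% of all tested genes, and 1 was lower, against 22%. In 6 receptors every ATRA library was above every DMSO library, which 25.4% of all genes showed, and in 1 every ATRA library was below, which 25.9% showed. Called at 2-fold were 4 higher (C5AR1, CCR1, CCR2 and LTB4R), against 7.26% of all genes, and 1 lower, against 3.18%. In libraries labelled HK3-null, 6 of 9 passed as higher with ATRA, against 25.3% of all genes, and 0 as lower, against 25.9%. The ATRA libraries were all above the DMSO libraries in 7 receptors, against 29.6% of genes, and all below in 0, against 29%. Called at 2-fold were CXCR4, CCR1, CCR2 and LTB4R, 4 higher against 8.83% of all genes, and 0 lower against 6.51%. 

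Between genotypes, the formyl peptide and complement receptors were higher in libraries labelled HK3-null. In DMSO, 5 of the 9 tested receptors passed as higher, against 28.7% of all genes, and 1 as lower, against 28%. FPR1, C3AR1, C5AR1 and CCR1 were called higher at 2-fold, 4 of 9 against 11.5% of genes, and 0 were called lower, against 8.74%. The genotypes did not overlap in 5 receptors that were higher, against 31.8% of genes, and in 1 that was lower, against 31.9%. In ATRA, 7 passed as higher, against 31%, and 1 as lower, against 30.6%. Called at 2-fold were 6 higher, against 12.4%, and 0 lower, against 10.6%. These 6 were FPR1, FPR2, C3AR1, C5AR1, CXCR4 and CCR1. The genotypes did not overlap in 7 receptors that were higher, against 32.2%, and in 1 that was lower, against 31.2%.

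**Figure D1:**
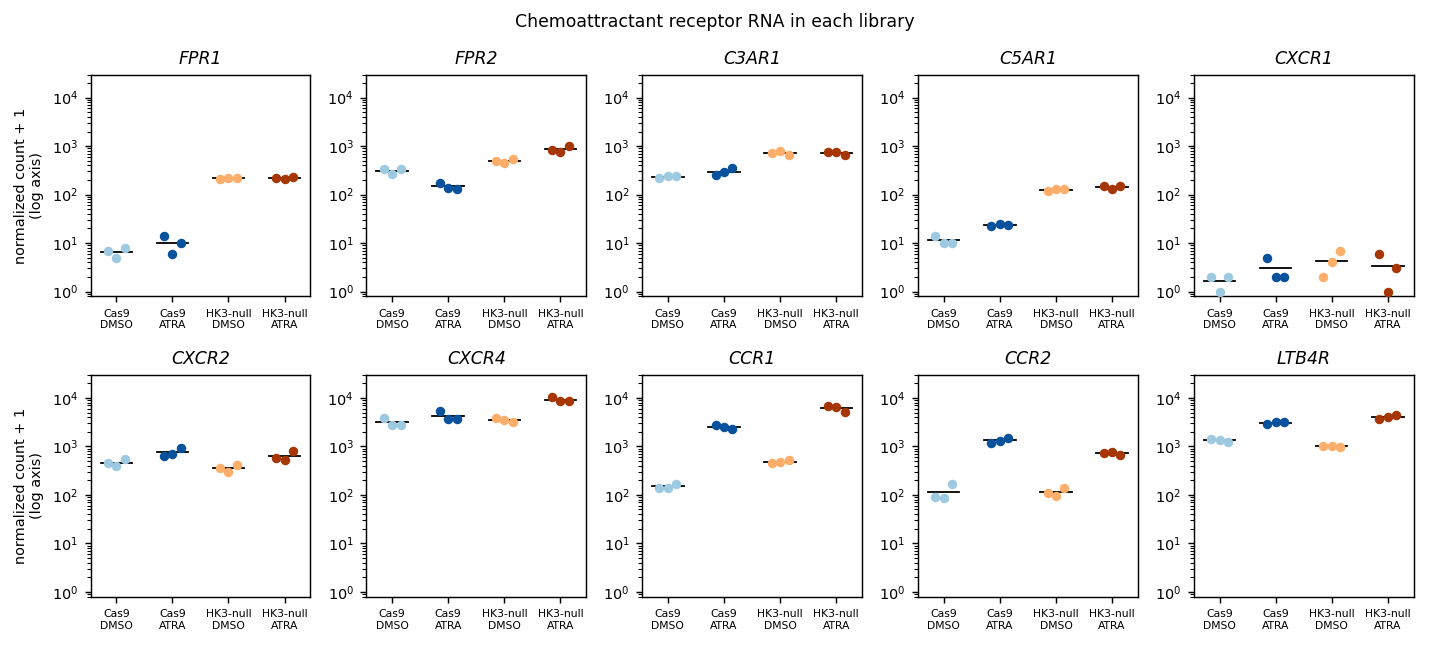
Normalized counts plus 1 (log axis) of the 10 receptors in each of the 12 RNAseq libraries, by group: points are libraries and lines are group means, with 3 libraries per group. FPR1, C3AR1 and C5AR1 separate by genotype label, CCR1 and CCR2 by treatment, and CXCR1 stays at 0 to 6 counts.

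FPR1, the high-affinity receptor for bacterial formyl peptides, was the receptor with the largest difference between genotypes. Its normalized counts were 6, 4 and 7 in Cas9 control DMSO and 13, 5 and 9 in Cas9 control ATRA. They were 207, 222 and 216 in HK3-null DMSO and 223, 204 and 233 in HK3-null ATRA. Every library labelled HK3-null was above every Cas9 control library, while the ATRA and DMSO libraries overlapped under both genotypes. The difference between genotypes was 5.04 ± 0.28 on the log2 scale in DMSO (SE, adjusted p = 1.38e-08 by limma) and 4.55 ± 0.28 in ATRA (adjusted p = 3.01e-08). The change with ATRA was 0.53 (95% interval -0.08 to 1.14, adjusted p = 0.149) in the Cas9 control and 0.03 (-0.58 to 0.64, adjusted p = 0.938) in HK3-null, which leaves a change of 1.14 within the interval. The first of these passed without Cas9 control ATRA replicate 2 (0.85, adjusted p = 0.0154).

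FPR2, which binds formyl peptides, lipoxin A4 and annexin A1, had the opposite ATRA response in the 2 genotypes. In the Cas9 control its counts were 329, 263 and 333 in DMSO and 169, 139 and 131 in ATRA. In libraries labelled HK3-null they were 501, 456 and 550 in DMSO and 844, 758 and 1022 in ATRA. All 3 ATRA libraries lay below the DMSO libraries in the Cas9 control and above them in HK3-null. The change was -1.07 ± 0.14 log2 (SE, adjusted p = 7.3e-05) in the first and 0.79 ± 0.14 (adjusted p = 0.000512) in the second. The difference between these changes, tested as the interaction of genotype and treatment, was 1.86 ± 0.20 (adjusted p = 0.000131), and 9.97% of all genes passed that test. FPR2 was higher in libraries labelled HK3-null both in DMSO, by 0.71 (adjusted p = 0.00101), and in ATRA, by 2.57 (adjusted p = 1.34e-08). In the annotation the 9352 bases of FPR2 lie inside the opposite-strand extent of FPR1. The libraries were directional, but whether the counting used strand is not given in the sources used here.

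The complement anaphylatoxin receptors followed the genotype label, as FPR1 did. C3AR1, the C3a receptor, had 217, 238 and 236 counts in Cas9 control DMSO and 247, 297 and 348 in Cas9 control ATRA, against 719, 785 and 669 in HK3-null DMSO and 745, 762 and 642 in HK3-null ATRA. The genotypes did not overlap under either treatment, with differences of 1.65 ± 0.12 log2 in DMSO (SE, adjusted p = 2.23e-07) and 1.28 ± 0.12 in ATRA (adjusted p = 1.86e-06). With ATRA, C3AR1 rose by 0.35 ± 0.12 in the Cas9 control (adjusted p = 0.0364). That call was lost on leaving out Cas9 control ATRA replicate 2 or 3 or any of the Cas9 control DMSO replicates (adjusted p = 0.0587 to 0.152), and also after quantile normalization (0.22, adjusted p = 0.155), with no filter (adjusted p = 0.0503) and with only the 2 groups fitted (adjusted p = 0.0983). In HK3-null the change was -0.02 (95% interval -0.29 to 0.25, adjusted p = 0.923).

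C5AR1, the main C5a receptor, had 13, 9 and 9 counts in Cas9 control DMSO and 22, 24 and 23 in Cas9 control ATRA. It had 119, 127 and 129 in HK3-null DMSO and 153, 132 and 147 in HK3-null ATRA. The genotypes were far apart, by 3.49 ± 0.18 log2 in DMSO (SE, adjusted p = 6.85e-09) and 2.59 ± 0.18 in ATRA (adjusted p = 7.85e-08). ATRA raised it in the Cas9 control by 1.10 ± 0.18 (adjusted p = 0.00032), and in HK3-null the change was 0.20 (95% interval -0.19 to 0.59, adjusted p = 0.37), although the groups did not overlap. The interaction was -0.90 ± 0.25 (adjusted p = 0.0406). It no longer passed when any 1 library other than Cas9 control DMSO replicate 1 was left out (adjusted p = 0.0613 to 0.101), with a pseudocount of 5 (-0.68, adjusted p = 0.0528) or with no filter (adjusted p = 0.0846).

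Of the CXC chemokine receptors, CXCR4 responded more strongly to ATRA in libraries labelled HK3-null. It was the most abundant receptor per kilobase in every group. Its counts were 3923, 2764 and 2812 in Cas9 control DMSO and 5476, 3681 and 3749 in Cas9 control ATRA, which overlapped. They were 3825, 3571 and 3263 in HK3-null DMSO and 10322, 8795 and 8734 in HK3-null ATRA, which did not. The change with ATRA was 0.44 ± 0.16 log2 in the Cas9 control (SE, adjusted p = 0.0426) and 1.38 ± 0.16 in HK3-null (adjusted p = 1.21e-05), with an interaction of 0.95 ± 0.23 (adjusted p = 0.0185). Without Cas9 control ATRA replicate 2 the interaction was 0.85 (adjusted p = 0.0507), and the rise in the Cas9 control was lost without Cas9 control ATRA replicate 1, or Cas9 control DMSO replicate 2 or 3 (adjusted p = 0.129 to 0.167). That rise was lost too on the deposited log2 values (adjusted p = 0.0541), with no filter (0.0637), with no trend (0.0765) and with only the 2 groups fitted (0.129). In ATRA, CXCR4 was higher in libraries labelled HK3-null by 1.13 ± 0.16 (adjusted p = 4.74e-05). In DMSO the difference was 0.18 (95% interval -0.16 to 0.53, adjusted p = 0.349), which passed with the replicate number as a block (adjusted p = 0.0381).

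CXCR2, the neutrophil receptor for CXCL8 and related chemokines, rose with ATRA under both genotypes. It had 462, 385 and 539 counts in Cas9 control DMSO, 619, 704 and 948 in Cas9 control ATRA, 356, 301 and 414 in HK3-null DMSO and 575, 535 and 792 in HK3-null ATRA. The ATRA libraries were above the DMSO libraries in both. The rise was 0.70 ± 0.19 log2 (SE, adjusted p = 0.0107) in the Cas9 control and 0.82 ± 0.19 (adjusted p = 0.00337) in HK3-null. The first was just lost without Cas9 control DMSO replicate 2 (0.58, adjusted p = 0.0512). The interaction was 0.12 (95% interval -0.48 to 0.71, adjusted p = 0.864). Between genotypes CXCR2 differed by -0.37 in DMSO (-0.79 to 0.05, adjusted p = 0.121) and by -0.25 in ATRA (-0.67 to 0.17, adjusted p = 0.272), with overlapping libraries. With replicate number entered as a block, both passed (adjusted p = 0.00179 and 0.0179). CXCR2 was the one tested receptor with a lower group mean under the HK3-null label in both treatments.

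CCR1 and CCR2 showed the largest ATRA responses and opposite genotype differences in ATRA. CCR1, a receptor for CCL3, CCL5 and CCL23, had 139, 141 and 165 counts in Cas9 control DMSO and 2817, 2511 and 2321 in Cas9 control ATRA. It had 453, 485 and 520 in HK3-null DMSO and 6906, 6373 and 5212 in HK3-null ATRA. None of the 4 groups overlapped another. ATRA raised CCR1 by 4.09 ± 0.11 log2 in the Cas9 control (SE, adjusted p = 4.5e-11), a 17.1-fold change, and by 3.65 ± 0.11 in HK3-null (adjusted p = 1.11e-10), 12.6-fold. Libraries labelled HK3-null were higher by 1.71 in DMSO (adjusted p = 7e-08) and by 1.27 in ATRA (adjusted p = 8.61e-07). The interaction was -0.44 ± 0.16 (adjusted p = 0.116), or 0.0447 under the replicate block. In the annotation all 6603 bases of CCR1 lie in the opposite-strand extent of CCR3.

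CCR2, the receptor for CCL2, had 89, 84 and 166 counts in Cas9 control DMSO and 1152, 1318 and 1526 in Cas9 control ATRA. It had 110, 93 and 137 in HK3-null DMSO and 714, 779 and 661 in HK3-null ATRA. The DMSO groups overlapped, and in ATRA all libraries labelled HK3-null were lower. The rise with ATRA was 3.61 ± 0.23 log2 in the Cas9 control (SE, adjusted p = 9.65e-08), 12.2-fold, and 2.67 ± 0.23 in HK3-null (adjusted p = 8.97e-07), 6.35-fold. In ATRA the genotypes differed by -0.88 ± 0.23 (adjusted p = 0.00467), and in DMSO by 0.06 (95% interval -0.44 to 0.55, adjusted p = 0.846). The interaction was -0.94 ± 0.32 (adjusted p = 0.0923). It passed with the replicate number as a block (adjusted p = 0.0111) and without Cas9 control DMSO replicate 3 (-1.25, adjusted p = 0.00509), the library with 166 counts.

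LTB4R, the high-affinity receptor for leukotriene B4, changed direction between genotypes with the treatment. Its counts were 1403, 1370 and 1228 in Cas9 control DMSO and 2865, 3220 and 3132 in Cas9 control ATRA. They were 1039, 1010 and 956 in HK3-null DMSO and 3729, 4112 and 4528 in HK3-null ATRA. No 2 groups overlapped. Libraries labelled HK3-null were lower in DMSO (-0.41 ± 0.08 log2, SE, adjusted p = 0.000865) and higher in ATRA (0.42 ± 0.08, adjusted p = 0.000632). These differences were small, 1.33-fold and 1.34-fold, and did not pass where 1.5-fold was required. ATRA raised LTB4R by 1.20 ± 0.08 in the Cas9 control (adjusted p = 1.81e-07) and by 2.04 ± 0.08 in HK3-null (adjusted p = 1.12e-09), and the interaction was 0.83 ± 0.12 (adjusted p = 0.000667). LTB4R shares 552 bases with LTB4R2, the low-affinity receptor on the same strand. LTB4R2 was at 244 to 287, 430 to 557, 165 to 221 and 499 to 548 counts in the same group order, and reads in the shared bases cannot be assigned to either.

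**Figure D2:**
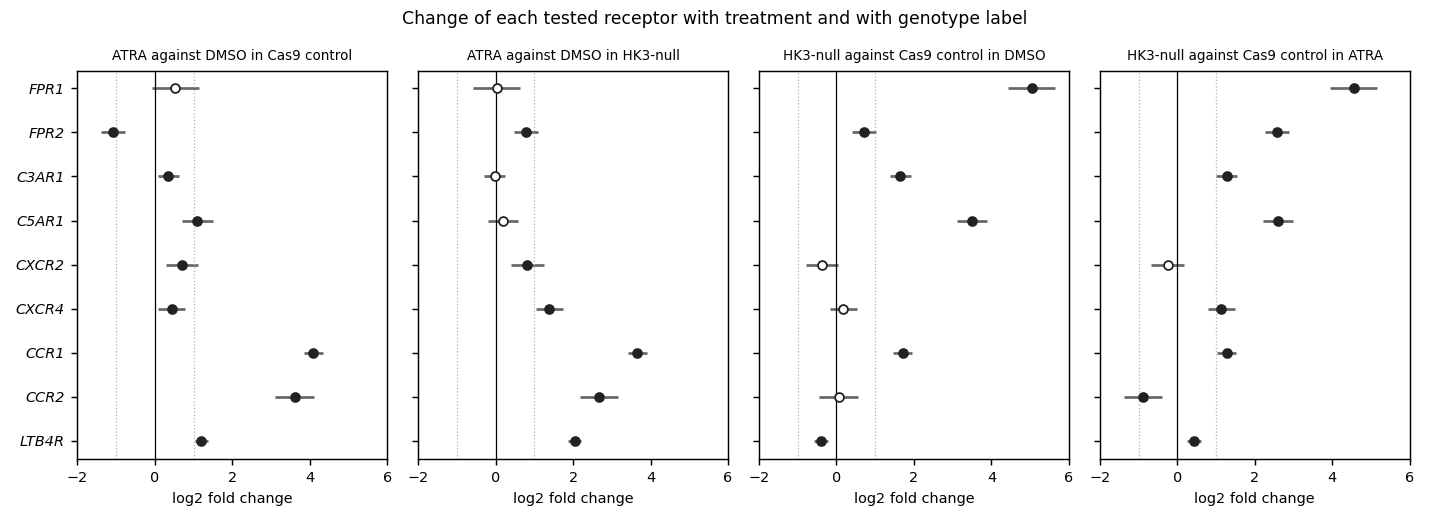
Log2 fold change of the 9 tested receptors in the 4 contrasts, on the log2(normalized count + 1) scale: points are limma estimates from 12 libraries, lines are 95% intervals, and filled points passed at adjusted p under 0.05. CCR1 and CCR2 lead both ATRA contrasts, and FPR1 and C5AR1 lead both genotype contrasts.

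The interaction test set 4 of 9 receptors apart (FPR2, CXCR4 and LTB4R with a higher ATRA response under the HK3-null label, C5AR1 with a lower one), against 9.97% of all tested genes, 4.79% with a higher and 5.18% with a lower response. For FPR2 and LTB4R the call held in all 21 alternatives, with adjusted p between 1.36e-06 and 0.000722 and between 6.2e-05 and 0.00294. The markers of mature neutrophils, eosinophils and monocytes moved with both factors, as given above, and their part in these receptor differences was not tested. Of the receptor calls, the rise of C3AR1 with ATRA in the Cas9 control was the one lost without Cas9 control DMSO replicate 1 (adjusted p = 0.109).

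**Figure D3:**
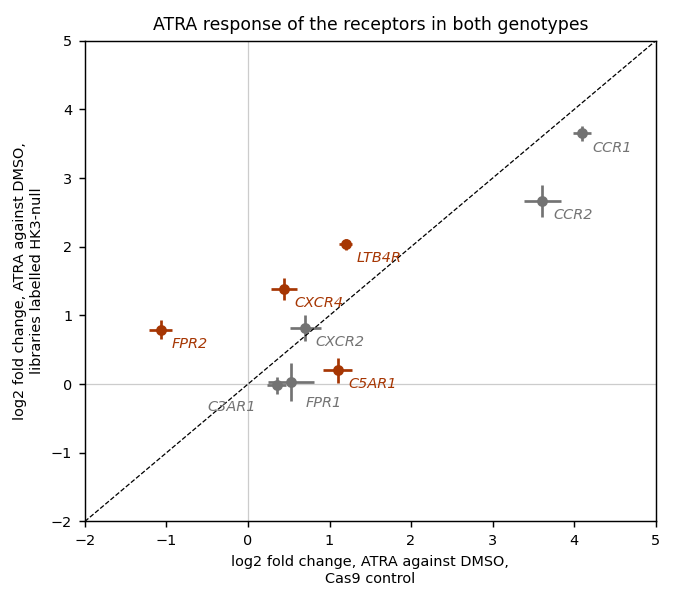
ATRA response of the 9 tested receptors in the Cas9 control (horizontal axis) and in libraries labelled HK3-null (vertical axis), as log2 fold change with SE from limma on 12 libraries; the dashed line marks equal response. Orange points (FPR2, C5AR1, CXCR4, LTB4R) passed the interaction test, and FPR2 lies at -1.07 and 0.79, with opposite signs.

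Levels of different receptors were compared only as normalized counts per kilobase of the MANE transcript. CXCR4 was first in each group, at a mean of 1900 in Cas9 control DMSO, 2580 in Cas9 control ATRA, 2130 in HK3-null DMSO and 5570 in HK3-null ATRA. LTB4R was next in 3 groups, at 493, 1140 and 371, and CCR1 took this place in HK3-null ATRA, at 2330 against 1530 for LTB4R. LTB4R and CCR1 (964) overlapped in Cas9 control ATRA. In Cas9 control DMSO the order went on with CXCR2 (162) and FPR2 (159), which overlapped, then C3AR1 (67.1), CCR1 (56.1), CCR2 (32.0), and C5AR1 (4.45) and FPR1 (4.37), which overlapped. In Cas9 control ATRA it went on with CCR2 (377) and CXCR2 (265), which overlapped, C3AR1 (86.6) and FPR2 (75.5), which overlapped, and C5AR1 (9.90) and FPR1 (6.93), which overlapped. In HK3-null DMSO it went on with FPR2 (259), then C3AR1 (211), CCR1 (184) and FPR1 (166), of which each overlapped the next, and CXCR2 (125), C5AR1 (53.8) and CCR2 (32.1). In HK3-null ATRA it went on with FPR2 (451), then CXCR2 (222), C3AR1 (209) and CCR2 (203), of which each overlapped the next, and FPR1 (169) and C5AR1 (62.0). CXCR1 was last throughout, with means of 0.271 to 1.36 per kilobase.

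The genes most like each receptor over the 12 libraries were found by Pearson's r of log2(normalized count + 1). The libraries fall into the same 4 groups for every gene, so r mostly follows the group means and is given as a description. FPR1 was most like ZNF717 (r = 0.996, 12 libraries), C3AR1 most like SUMF2 (0.992) and C5AR1 most like XK (0.993). FPR2 was most like PNP (0.976), CXCR2 most like NUDT22 (0.978) and CXCR4 most like SLC16A3 (0.977) and HIF1A (0.974). CCR1 was most like SNN (0.997), CCR2 most like LINC01091 (0.986) and LTB4R most like GALNT12 (0.994).

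Other chemoattractant receptors were taken from a list of 28 genes, of which 16 were tested. With ATRA, 8 were called higher and 0 lower in the Cas9 control, against 7.26% and 3.18% of all tested genes, with a median log2 change of 1.26 against 0.00. In HK3-null 6 were called higher and 1 lower, against 8.83% and 6.51% (median 0.85 against 0.01). In DMSO 10 were called higher and 1 lower in libraries labelled HK3-null, against 11.5% and 8.74% (median 1.47 against 0.00), and in ATRA 6 higher and 3 lower, against 12.4% and 10.6% (median 0.59 against 0.01). These counts, like those of the other gene and marker lists, include genes that passed the filter only through a group where they are high. Such genes had to differ, so the counts are a description. Several of these genes are at very few counts in 1 or more groups. CCR3, the eotaxin receptor, went from 0, 4 and 1 to 173, 231 and 273 in the Cas9 control and from 8, 4 and 5 to 515, 551 and 680 in HK3-null. CXCR5, the CXCL13 receptor best known from B cells, went from 3, 1 and 1 to 406, 433 and 259 and from 14, 6 and 6 to 650, 635 and 420. All of these ATRA libraries were above the DMSO libraries of the same genotype.

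PTAFR was higher under the HK3-null label in both treatments. PTAFR, the receptor for platelet-activating factor, was at 34, 26 and 17 counts in Cas9 control DMSO and at 235, 257 and 231 in HK3-null DMSO, a difference of 3.23 ± 0.23 log2 (SE, adjusted p = 1.43e-07). In ATRA it was at 108, 101 and 73 against 511, 366 and 393, a difference of 2.16 ± 0.23 (adjusted p = 4.43e-06). GPR84, a receptor for medium-chain fatty acids, was at 8, 6 and 7 against 87, 91 and 111 in DMSO and at 1, 4 and 9 against 84, 82 and 98 in ATRA. It passed the filter only through its HK3-null groups, so no test of it is given. The genotypes did not overlap for either gene under either treatment.

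CCR1, CCR2 and CCR3 lie in the chemokine receptor cluster of chromosome 3, and 7 listed receptors that start within 500 kb of CCR1 were read in chromosome order. This grouping was made after their values were seen. CCR9, CXCR6 and XCR1, which precede CCR1 on the chromosome, were at 0 in all 12 libraries. CCR1, CCR3, CCR2 and CCRL2, which lie in that order within GRCh38 chr3:46201711-46409523, all rose with ATRA under both genotypes. CCRL2, a receptor that binds chemerin without signaling, was at 5, 2 and 1 counts in Cas9 control DMSO and 34, 51 and 53 in Cas9 control ATRA, and at 5, 9 and 9 in HK3-null DMSO and 46, 75 and 71 in HK3-null ATRA. CCR2 differed from its neighbors in that its ATRA level was lower under the HK3-null label, whereas those of CCR1 and CCR3 did not overlap and were higher. The nearest deposited ATACseq region was 28148 bases from the start site of CCR1 and lists CCR3.

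**Figure D4:**
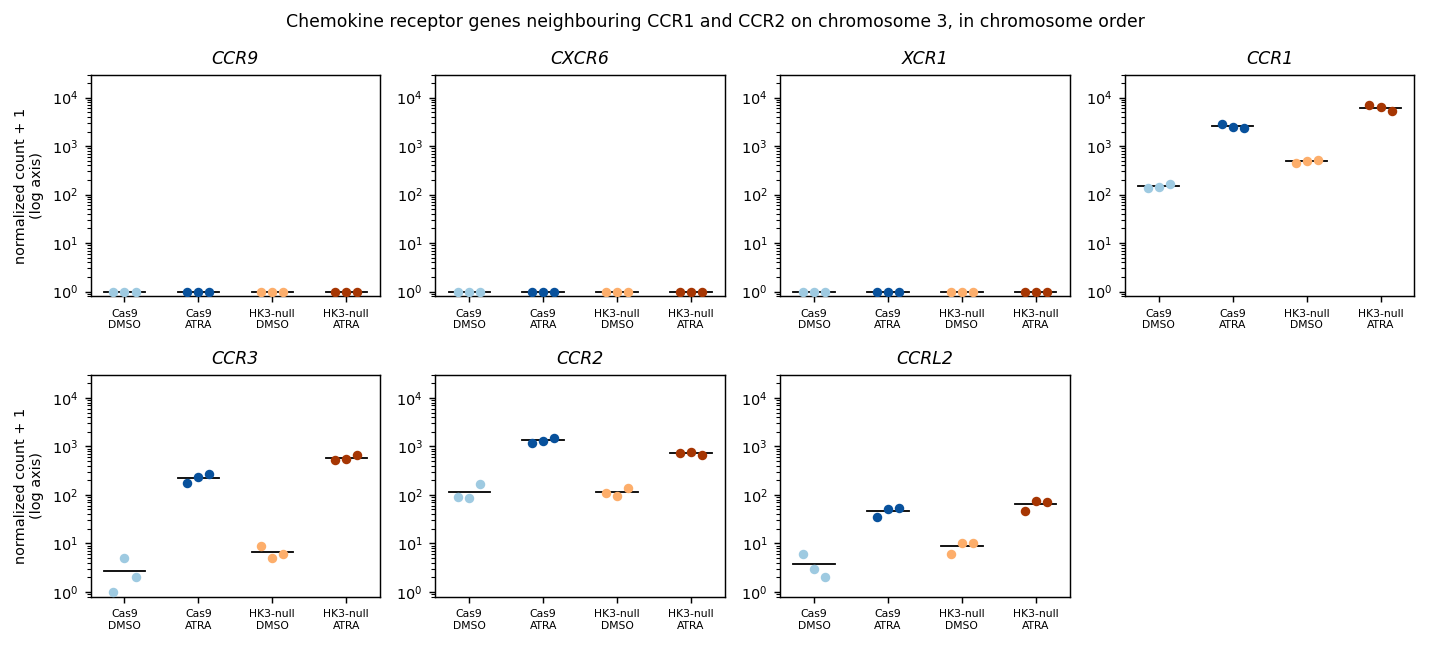
Normalized counts plus 1 (log axis) of 7 listed receptor genes around CCR1 on chromosome 3, in chromosome order, in each RNAseq library: points are libraries and lines are group means of 3. CCR9, CXCR6 and XCR1 are at 0 counts in every library, while CCR1, CCR3, CCR2 and CCRL2 are higher in the ATRA libraries of both genotypes.

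Of 24 listed ligands and ligand-making enzymes 14 were tested, and 9 of these passed as higher with ATRA and 0 as lower under each genotype. Of all genes, 21.1% passed as higher and 22% as lower in the Cas9 control, and 25.3% and 25.9% in HK3-null. In the Cas9 control 9 were called higher and 0 lower at 2-fold (median 1.29 log2 against 0.00 over all genes), against 7.26% and 3.18% of all genes. In HK3-null 7 were called higher and 0 lower (1.27 against 0.01), against 8.83% and 6.51%. Between genotypes 8 were called higher under the HK3-null label in DMSO and 0 lower (1.93 against 0.00), against 11.5% and 8.74%. In ATRA 7 were called higher and 0 lower (1.08 against 0.01), against 12.4% and 10.6%. At adjusted p alone 9 passed as higher and 2 as lower in DMSO, against 28.7% and 28% of all genes. In ATRA 11 passed as higher and 1 as lower, against 31% and 30.6%. Genes such as CCL3 passed the filter only through their HK3-null groups and had to differ, so these counts are a description. CCL2, the ligand of CCR2, was at 102, 56 and 26 counts in Cas9 control DMSO and at 5122, 4544 and 2983 in Cas9 control ATRA. It was at 479, 453 and 338 in HK3-null DMSO and at 15625, 15972 and 9056 in HK3-null ATRA. Its rise was 6.25 ± 0.39 log2 in the Cas9 control (SE, adjusted p = 9.24e-08) and 4.97 ± 0.39 in HK3-null (adjusted p = 4.32e-07). So in HK3-null ATRA the ligand CCL2 was above and its receptor CCR2 below the Cas9 control ATRA libraries, with no overlap for either. CXCL8, a ligand of CXCR1 and CXCR2, was higher under the HK3-null label by 3.48 ± 0.31 in DMSO (adjusted p = 1.01e-06) and 2.59 ± 0.31 in ATRA (adjusted p = 1.18e-05). C3, the precursor of the C3AR1 ligand, was higher by 2.83 ± 0.14 in DMSO (adjusted p = 5.72e-09).

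Among genes of leukotriene B4 synthesis, ALOX5AP and ALOX5 were called, and ALOX5 was highest in HK3-null ATRA. ALOX5AP, the 5-lipoxygenase activating protein, was at 2662 to 2909 counts in Cas9 control DMSO and 22676 to 23332 in Cas9 control ATRA, and at 1984 to 2040 and 25142 to 27610 in HK3-null. It rose by 3.03 ± 0.05 log2 (SE, adjusted p = 4.88e-13) and 3.72 ± 0.05 (adjusted p = 2.78e-13). ALOX5, the lipoxygenase, was at 380 to 388 counts in Cas9 control ATRA and 2253 to 2570 in HK3-null ATRA, a difference of 2.65 ± 0.08 (adjusted p = 8.32e-11). LTA4H and PLA2G4A of the same list were not called at 2-fold. Mean counts of LTA4H were 1827 and 1859 in Cas9 control DMSO and ATRA, and 1615 and 2415 in HK3-null. Those of PLA2G4A were 632 and 496 in the Cas9 control and 352 and 258 in HK3-null, lower under the label in both treatments. ANXA1, whose product is a ligand of FPR2, rose with ATRA under both genotypes. It was at 1366 to 1539 counts in Cas9 control DMSO and 3355 to 3681 in Cas9 control ATRA, and at 1257 to 1372 and 4645 to 4969 in HK3-null. Its rise in HK3-null was 1.87 ± 0.07 (adjusted p = 3.32e-10), and the interaction was 0.56 ± 0.09 (adjusted p = 0.00206). Of the ranges given for ALOX5AP, ALOX5 and ANXA1, only those of ANXA1 in the DMSO groups overlapped.

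Below the receptors, most G protein subunits were not called at 2-fold, while GNG2 was called in every contrast. Of 14 tested subunits 1 was called higher and 0 lower with ATRA in the Cas9 control, against 7.26% and 3.18% of all genes (median -0.09 log2 against 0.00), and 2 higher and 1 lower in HK3-null, against 8.83% and 6.51% (median 0.13 against 0.01). GNG2, a γ subunit, was at 45, 35 and 31 counts in Cas9 control DMSO and 3403, 3403 and 3104 in Cas9 control ATRA, and at 283, 272 and 246 in HK3-null DMSO and 9251, 9019 and 8941 in HK3-null ATRA. It rose by 6.46 ± 0.11 log2 (SE, adjusted p = 6.12e-13) and 5.08 ± 0.11 (adjusted p = 8.91e-12). Of 14 genes of receptor desensitization, 1 was called higher and 0 lower with ATRA in the Cas9 control (median 0.03 against 0.00), and 3 higher and 1 lower in HK3-null (median 0.12 against 0.01), against the same shares of all genes. ARRB2, β-arrestin 2, rose by 1.47 ± 0.06 (adjusted p = 9.35e-10) and 1.29 ± 0.06 (adjusted p = 2.62e-09). RGS2, a GTPase-activating protein, was at 47 to 66 counts in Cas9 control ATRA and 750 to 999 in HK3-null ATRA, a difference of 3.97 ± 0.31 (adjusted p = 2.81e-07). GNAI1 and RGS1 passed the filter only through HK3-null ATRA and had to differ, so the counts of both lists are a description.

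Of 32 tested signaling and migration effectors, 9 were called higher and 0 lower with ATRA in the Cas9 control, against 7.26% and 3.18% of all genes (median 0.51 log2 against 0.00), and 11 higher and 1 lower in HK3-null, against 8.83% and 6.51% (median 0.65 against 0.01). PIK3CG, the catalytic subunit of PI3Kγ, rose by 2.92 ± 0.07 (SE, adjusted p = 8.49e-12) and 3.07 ± 0.07 (adjusted p = 8.91e-12). FGR, a Src family kinase, was at 36 to 48 counts in Cas9 control DMSO, 11122 to 13015 in Cas9 control ATRA, 1080 to 1241 in HK3-null DMSO and 23046 to 25482 in HK3-null ATRA. PRKCB, a protein kinase C, rose by 2.68 ± 0.08 (adjusted p = 1.13e-10) and 1.96 ± 0.08 (adjusted p = 1.76e-09). Between genotypes 7 effectors were called higher in DMSO, against 11.5% of all genes, and 3 in ATRA, against 12.4%, with the Src family kinase LYN (1.62 ± 0.16, adjusted p = 2.78e-06 in DMSO) among both. None was called lower at 2-fold in either by limma, against 8.74% and 10.6% of all genes. At adjusted p alone 17 passed as higher and 5 as lower in DMSO, against 28.7% and 28% of all genes. In ATRA 19 passed as higher and 5 as lower, against 31% and 30.6%. PLCB4 passed the filter only through HK3-null DMSO and had to differ, so the counts of this list are a description.

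The ATACseq table listed only C3AR1 and CXCR1 among the receptors. In ATRA, the HK3-null and Cas9 control means of each of the 8286 deposited regions are 1.5-fold or more apart. The table is therefore selected on this difference, which is not tested here. The C3AR1 region, at GRCh38 chr12:8057622-8058305, also lists FOXJ2. All 684 of its bases lie in the 3′ untranslated part of the last C3AR1 exon, with its centre 8396 bases from the C3AR1 start site. Its signal, a fragment density, was 87.6 and 66.3 in Cas9 control DMSO, 25.6 and 24.4 in Cas9 control ATRA, 123 and 112 in HK3-null DMSO and 43.0 and 94.7 in HK3-null ATRA. Both ATRA libraries were below both DMSO libraries in the Cas9 control, by -1.57 ± 0.32 log2 (SE, adjusted p = 0.00051 by limma), while 15.6% of 6214 tested regions were called lower. The selection used the same Cas9 control ATRA libraries and keeps regions that are low in them, so this p is not independent of it. In HK3-null the change was -0.87 ± 0.32 (adjusted p = 0.0583), where 11.8% of regions were called lower. The HK3-null ATRA libraries were part of the selection too, so this p is not independent of it either. Without HK3-null ATRA replicate 2, at 94.7, the change was -1.43, with 1 library left in that group. In DMSO the genotypes differed by 0.62 ± 0.32 (adjusted p = 0.0714), where 42.7% of regions were called higher.

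The CXCR1 region, at GRCh38 chr2:218161680-218162053, lies 788 bases beyond the 3′ end of CXCR1 and outside its exons. Its mean signal of 14.7 was below the limit of 17.1 for testing. It was at 12.9 and 6.42 in Cas9 control DMSO, 11.4 and 6.08 in Cas9 control ATRA, 14.3 and 9.08 in HK3-null DMSO and 25.9 and 31.4 in HK3-null ATRA. Only the last group lay apart, on the contrast that selected the region, and CXCR1 RNA in that group was at 5, 0 and 2 counts. For the other 8 receptors the nearest deposited region was between 18.4 kb (LTB4R) and 128 kb (CXCR4) from the start site. No deposited region fell on a receptor promoter, which says nothing of accessibility there, since only regions past the selection were in the table.

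**Figure D5:**
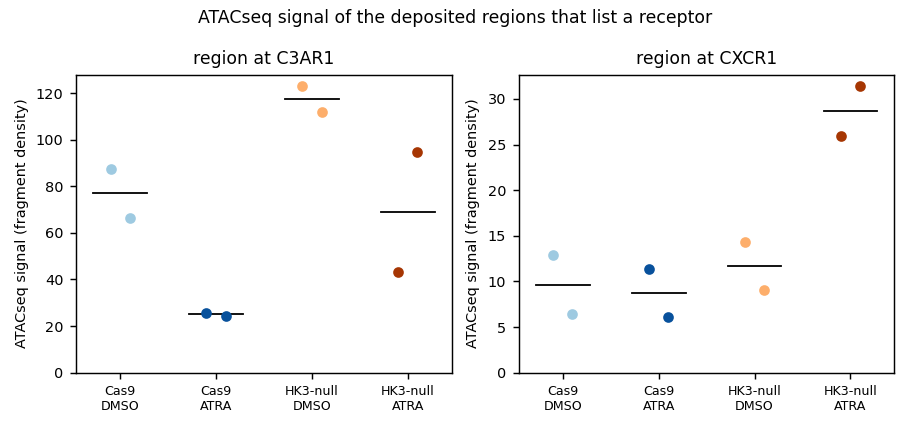
ATACseq signal (fragment density, linear axes from 0) of the regions that list C3AR1 and CXCR1 in each of the 8 libraries: points are libraries and lines are group means of 2. The C3AR1 region is lowest in Cas9 control ATRA, at 25.6 and 24.4, and the CXCR1 region highest in HK3-null ATRA, at 25.9 and 31.4.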

How the data were processed

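RNAseq and ATACseq of HL60 cells were grouped by the genotype and treatment labels. For RNAseq, the authors deposited gene-level log2 values of scaled, whole-number counts, with 0 written as the log2 of 0.001; reads were directional, paired-end and mapped to GRCh38, and the submitters' processing notes name DESeq2 and MACS2. The counting's use of strand is not given in the sources used here. In the case of ATACseq, the authors deposited a signal, the fragment density of merged MACS2 peaks after all libraries were reduced to the same number of fragments, and its depth is unknown. Counts before scaling were not used here, so count models were not run.

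The deposited log2 values were turned back into normalized counts, and log2(normalized count + 1) of all 12 libraries was fitted with limma 3.58.1 in R 4.3.3 (1 mean per group, eBayes with a trend, Benjamini-Hochberg adjustment). The 13256 genes with a group mean above 3 on the deposited log2 scale in at least 1 group were tested. log2(signal + 1) of 8 ATACseq libraries was fitted the same way over the 6214 regions above the 25th percentile of mean signal (17.1), called at 1.5-fold. Of 7264 pairs of a region and its listed gene, 99.6% lay within 100 kb in GRCh38. At most 0.00926% of the counts fell on 330 unnamed entries, which were left out. The fit was tested on simulated data. Gene positions and transcript lengths came from GENCODE 44, and promoters from RefSeq, where all 10 receptors matched; protein sequences were not used here.

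The replicate numbers of RNAseq come from the sample titles. Libraries with the same number deviated together from their group means (r = 0.178 to 0.631 in 18 pairs over 10667 genes, against -0.643 to 0.286 in 36 pairs with different numbers), so values with the number as a block are given where they change a call. Alternatives were other pseudocounts, filters, scaling, thresholds, the block, and leaving out each replicate. Named are all receptors; per list and contrast, up to 3 called genes with the largest change among those with a group mean of at least 50 counts; the genes most correlated with each receptor; and genes that overlap a receptor. Some genes that this rule names are not reported here. CCRL2, CCR9, CXCR6 and XCR1 were named after their values were seen. The receptors and lists were chosen with earlier results of these data known.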

Additional observations from a re-analysis of the deposited data

Results flagged for a closer look

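The ATRA response of 4 receptors differed between genotypes by the interaction test of limma. For FPR2 the response under the HK3-null label was higher by 1.86 log2 (adjusted p = 0.000131), with a fall in 3 of 3 Cas9 control ATRA libraries and a rise in 3 of 3 HK3-null ATRA libraries against all DMSO libraries of the same genotype. For CXCR4 it was higher by 0.95 (adjusted p = 0.0185) and for LTB4R by 0.83 (adjusted p = 0.000667). For C5AR1 it differed by -0.90 (adjusted p = 0.0406), the highest adjusted p of the 4. The C5AR1 difference no longer passed without any 1 library other than Cas9 control DMSO replicate 1 (adjusted p = 0.0613 to 0.101), and that of CXCR4 no longer passed without Cas9 control ATRA replicate 2 (adjusted p = 0.0507).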

How the results depend on the processing

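The calls of FPR2, CCR1, CCR2 and LTB4R with ATRA, and of FPR1, C3AR1, C5AR1 and CCR1 between genotypes, kept their direction and side of the threshold in every alternative of their contrasts. With the replicate number as a block, 8, 6, 8 and 9 receptors passed in the ATRA contrast of the Cas9 control, that of HK3-null, and the genotype contrasts in DMSO and ATRA, against 8, 6, 6 and 8, and 6 instead of 4 passed the interaction; besides the calls given with the report the block changed no other receptor call. Over all genes the block raised the interaction calls from 1321 to 3182. For ATACseq the same-numbered libraries did not deviate together (r = -0.209 to 0.054, 6 pairs), and the block left 1, 0 and 0 receptor regions past the tests. Leaving out 1 library gave 5 to 8 receptors for ATRA in the Cas9 control (5 without Cas9 control DMSO replicate 2) and 2 to 4 for the interaction (2 without Cas9 control ATRA replicate 2). The C3AR1 region passed for ATRA in HK3-null with a pseudocount of 5, with mean signal above the median, and with an unadjusted p and 1.5-fold. Signs turned only for values that did not pass: FPR1 with ATRA in HK3-null (-0.09 after quantile normalization, -0.01 to 0.08 without 1 library, lowest without HK3-null ATRA replicate 3), C3AR1 with ATRA in HK3-null (-0.07 to 0.06 without 1 library, above 0 without HK3-null ATRA replicate 3 or HK3-null DMSO replicate 2), CCR2 between genotypes in DMSO (-0.06 after quantile normalization, -0.12 to 0.37 without 1 library, below 0 without Cas9 control DMSO replicate 1 or 2 or HK3-null DMSO replicate 3) and the CXCR2 interaction (-0.05 to 0.29 without 1 library, lowest without HK3-null ATRA replicate 3). The cause was not tested. With an unadjusted p and 1.5-fold, 2929, 3963, 4617 and 5225 genes passed against 5708, 6780, 7517 and 8171. Quantile normalization moved the median of all genes by at most -0.05. Under it CXCR2 passed between genotypes in DMSO (-0.48, adjusted p = 0.049), the rise of C3AR1 with ATRA in the Cas9 control was lost (adjusted p = 0.155), and 38.6% instead of 48.1% of all interaction calls were higher. Over all ATACseq regions, 1128 passed for ATRA in the Cas9 control and 1046 in HK3-null. The first fell to 541 without replicate 2 of Cas9 control ATRA, and to 675 and 495 without replicates 1 and 2 of Cas9 control DMSO. The second fell to 690 without replicate 1 of HK3-null ATRA, and to 471 and 530 without replicates 1 and 2 of HK3-null DMSO. With 3 libraries per group, small changes such as those of C3AR1 and CXCR4 in the Cas9 control sit at the limit of what these data resolve.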
